A study of Mus musculus with 6 samples.

Results

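The genes described here encode the GIMAP proteins (GTPases of immunity-associated protein), a family of lymphocyte GTPases. They were taken from the deposited count table by symbol: Gimap1, Gimap3, Gimap4, Gimap5, Gimap6, Gimap7, Gimap8 and Gimap9, 8 genes of 25075 in all, and every one of them was found and passed the filter on low counts. The libraries were made by Smart-seq2, which copies full-length transcripts from small inputs, from group 3 innate lymphoid cells (ILC3s) of mouse small intestine. ILC3s live in mucosal tissue and secrete IL-22 and IL-17. The sort took 2000 lineage-negative, CD90.2-positive, KLRG1-negative cells per sample, and 2 ng of RNA went into each library. All mice were on a b6 background and carried Batf fl/fl, a floxed gene for the transcription factor BATF. The 3 control libraries came from Batf fl/fl PLZF-Cre- mice and the 3 Batf-deficient libraries from Batf fl/fl PLZF-Cre+ mice. PLZF is made in precursors of innate lymphoid cells and in some innate-like T cells, so its Cre is not restricted to ILC3s. The series design calls the 3 samples of a group biological replicates. Age and sex are not given in the labels, and which animals the samples came from is not stated, so p-values measure the spread between these samples.

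GIMAP proteins share a GTP-binding domain, and several are anchored to membranes of the endoplasmic reticulum, Golgi, mitochondria or lysosomes. They are best known for keeping resting T and B cells alive: lymphocytes that lack Gimap1 or Gimap5 are lost from the periphery, and loss of Gimap5 is followed by colitis in mice. Their genes lie side by side in a single cluster. In mm10 the cluster ran over 123.6 kb of chromosome 6, from 48647234 to 48770851, with 6 genes on the plus and 2 (Gimap6 and Gimap3) on the minus strand. In GENCODE M21 all 8 are protein coding, with 2 to 6 annotated transcripts each.

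The sequence that defines the family is the P-loop, which holds the phosphates of GTP. A search of the coding sequence of each gene's principal transcript for the pattern glycine, any 4 residues, glycine, lysine, serine or threonine found the loop once in each of 7 members and 3 times in Gimap8, whose coding sequence of 688 codons is the longest. The 42 bases around each loop are shown, 5′ to 3′ on the coding strand (GENCODE M21, mm10), with the 24 bases of the loop in capitals, because they show both what the members share and which members are nearly the same.
Gimap1 (chr6:48742543-48742584, + strand): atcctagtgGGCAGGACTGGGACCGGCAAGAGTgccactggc
Gimap3 (chr6:48765878-48765919, - strand): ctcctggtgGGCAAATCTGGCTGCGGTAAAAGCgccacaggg
Gimap4 (chr6:48690412-48690453, + strand): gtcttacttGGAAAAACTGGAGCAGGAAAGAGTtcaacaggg
Gimap5 (chr6:48752585-48752626, + strand): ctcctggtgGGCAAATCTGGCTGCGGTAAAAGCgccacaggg
Gimap6 (chr6:48702741-48702782, - strand): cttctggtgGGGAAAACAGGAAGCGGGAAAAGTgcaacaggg
Gimap7 (chr6:48723515-48723556, + strand): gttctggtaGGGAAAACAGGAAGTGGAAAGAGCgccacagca
Gimap8, the first loop (chr6:48650247-48650288, + strand): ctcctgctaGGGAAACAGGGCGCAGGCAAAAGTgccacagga
Gimap8, the second loop (chr6:48656110-48656151, + strand): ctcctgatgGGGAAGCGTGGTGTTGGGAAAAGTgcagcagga
Gimap8, the third loop (chr6:48658737-48658778, + strand): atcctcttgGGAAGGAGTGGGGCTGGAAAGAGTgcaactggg
Gimap9 (chr6:48677514-48677555, + strand): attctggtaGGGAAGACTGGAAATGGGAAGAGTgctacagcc

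Gimap3 and Gimap5 had the same 24 loop bases, and among the 7 members with a single loop they were the most alike pair. Their coding sequences agreed at 90.7% of 895 aligned bases and held an identical run of 140 bases. The other 20 pairs agreed at 57.9% to 68.8% of aligned bases, and their longest identical runs were 9 to 17 bases. The run shared by Gimap3 (chr6:48765681-48765820, - strand) and Gimap5 (chr6:48752684-48752823, + strand) is shown because a read that lies inside it fits both genes.
Gimap3 and Gimap5, shared coding run: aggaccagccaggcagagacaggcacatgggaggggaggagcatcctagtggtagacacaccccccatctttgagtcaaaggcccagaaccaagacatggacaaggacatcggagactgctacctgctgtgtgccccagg
How such reads were assigned is not stated, so the split between Gimap3 and Gimap5 is uncertain. Gimap1 shares 1107 exon bases with Gimap1os, a noncoding gene on the opposite strand, and reads of this pair cannot be told apart without strand. A read-through model, Gm28053, shares 81 exon bases with Gimap7, 198 with Gimap1 and 153 with Gimap5. It had 2, 0 and 2 counts in the control and 2, 1 and 13 in the Batf-deficient libraries.

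Library totals ran from 8228513 to 17334207 counts, and the members together had 3356 to 20190 counts per library. Batf itself was at 15.2, 15.3 and 18.955 CPM (counts scaled to library size, with TMM factors that correct library totals for differences in composition) in control libraries and at 38.3, 41.3 and 41.3 CPM in the Batf-deficient libraries. With TMM factors the targeted gene was higher in the group labelled as lacking it (log2 fold change 1.29, edgeR adjusted p = 1.70e-05). With scaling on the lymphoid genes described further on it was lower (-1.14, edgeR adjusted p = 4.94e-05). Its direction thus depends on the scaling. For this reason groups are named by label throughout, as "the libraries labelled Batf-deficient" or in short Batf-deficient. Counts per gene do not show from which exons reads came. The control libraries also held much more RNA of other tissues. Summed over 10 acinar genes of the pancreas they had 44470.0 to 47468 CPM against 2.84 to 4.51 CPM, and over 12 epithelial genes 10987 to 12009 CPM against 323 to 358 CPM. In bulk samples, fewer cells of a type and less RNA per cell cannot be told apart. The closest pair of libraries was Batf-deficient replicates 1 and 2. Over the 8 members their mean chi-square per gene was 0.982, where 1 is sampling noise, against 2.46 to 11.6 for the other pairs within a group. Over all genes with at least 20 counts it was 2.36 for that pair and 14.8 to 24.2 for the others. A value of 1 covers counting error only, and these reads carry no molecular identifiers, so the values do not show whether both came from separate samples. They were kept as 2 samples because the labels list them so.

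Every GIMAP gene was higher in the libraries labelled Batf-deficient with TMM factors, by 3.46-fold for Gimap6 to 9.27-fold for Gimap9. All 8 passed the threshold (edgeR quasi-likelihood test, Benjamini-Hochberg adjusted p of 0.05), in a comparison in which 30.2% of 15261 genes were called higher. The CPM values of the groups did not overlap for any member, which held in the same direction for 34.6% of all genes tested. The members' median log2 fold change was 2.53, where that of all genes was 0.02. Between 2.16% of genes (for Gimap9) and 9.73% (for Gimap6) had a larger fold change than a given member. The family as a sum stood at 316, 288.0 and 321 CPM in control libraries, against 1686, 1699 and 1625 CPM in Batf-deficient libraries. The means of these sums were 308 ± 17.8 and 1669.9 ± 39.4 CPM (SD, n = 3 each), a 5.42-fold difference.

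**Figure D1:**
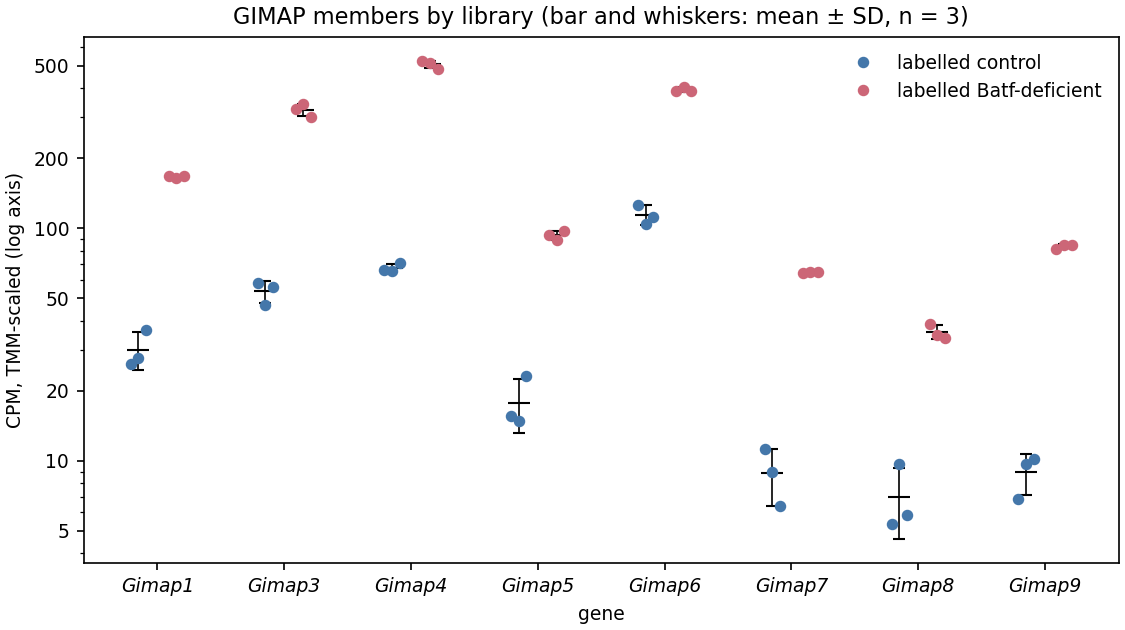
Level of each GIMAP gene in every library, as TMM-scaled CPM on a log axis. Points are single libraries, with the 3 control libraries at the left and the 3 Batf-deficient libraries at the right of each gene, and bars and whiskers give mean ± SD. For every gene the Batf-deficient points lie above the control points, and the gap is narrowest for Gimap6.

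Among the members tied to lymphocyte survival, Gimap5 encodes a protein of lysosomes and late endosomes that mature T cells, NK cells and NKT cells need. It had 15.6, 14.8 and 23.1 CPM in the control and 93.3, 88.9 and 97.5 CPM in the Batf-deficient libraries. Control replicate 3 was the highest of its group and still far below the other group. The log2 fold change was 2.38 (edgeR adjusted p = 1.57e-07, SE 0.17). Its near copy Gimap3, whose protein is found at mitochondria and endoplasmic reticulum, had 58.1, 46.8 and 56.1 CPM against 326, 341 and 302 CPM. The lowest Batf-deficient library was thus above all 3 control libraries, with a log2 fold change of 2.59 (edgeR adjusted p = 2.06e-09, SE 0.12). There were 2.43 to 3.73 Gimap3 counts for each Gimap5 count in the control and 3.10 to 3.84 in the Batf-deficient libraries, and these ranges overlapped. Gimap1, whose protein sits in the Golgi and is required for mature T and B cells, had 26.2, 27.6 and 36.6 CPM against 169, 165 and 167 CPM. Control replicate 3 again stood highest in its group, and the log2 fold change was 2.47 (edgeR adjusted p = 1.53e-08, SE 0.14).

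Gimap4 encodes a T cell protein linked to the course of apoptosis. It was the steadiest member in the control libraries, with 66.5, 65.8 and 70.7 CPM, against 522, 513 and 486 CPM in the Batf-deficient libraries. The SD was 3.97% of the mean in the first group and 3.73% in the second. Its log2 fold change of 2.91 (SE 0.10) had an edgeR adjusted p of 1.55e-10. Gimap6 encodes a protein that binds the autophagy protein GABARAPL2. Its values were 127, 105 and 112 CPM in control libraries, where no other member had as many counts, against 390.3, 406 and 389 CPM in the Batf-deficient libraries. The log2 fold change of 1.79 (edgeR adjusted p = 1.79e-08, SE 0.10) was the lowest of the family.

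The remaining members had the fewest counts. Gimap7, whose protein can pair with other GIMAPs and speed up their GTP hydrolysis, had 11.2, 8.93 and 6.39 CPM against 64.6, 65.1 and 64.6 CPM. The Batf-deficient values were almost equal, with an SD of 0.421% of the mean, while the control SD was 27.3% of the mean. Counting error on the 466, 458 and 803 Batf-deficient counts is larger than that SD, so their closeness is not a measure of precision. Its log2 fold change was 2.89 (edgeR adjusted p = 8.02e-08, SE 0.19). Gimap9, a member of little known function, had 6.88, 9.67 and 10.2 CPM against 81.8, 84.7 and 84.9 CPM, which gave the family's highest log2 fold change of 3.21 (edgeR adjusted p = 6.11e-09, SE 0.16). Gimap8, the member with 3 P-loops, had 5.37, 9.67 and 5.87 CPM against 38.7, 35.0 and 33.9 CPM. Control replicate 2 stood highest in its group, and the SD there was 33.8% of the mean. The log2 fold change was 2.35 (edgeR adjusted p = 2.72e-06, SE 0.23).

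Since the groups differed in RNA of other tissues, the members were also set against 19 other lymphoid genes (a panel with Ptprc, Il7r, Lck, Thy1 and Il2rg among others, and no GIMAP gene). The panel was chosen with earlier results of these data known, so it is not an independent benchmark. The family kept nearly the same ratio to this panel in both groups. For every 100 panel counts there were 22.9, 20.8 and 23.6 GIMAP counts in the control and 22.3, 22.9 and 22.8 in the Batf-deficient libraries. The means were 22.5 ± 1.45 and 22.6 ± 0.311 (SD, n = 3 each), and the ranges overlapped. When the whole table was scaled on the panel counts and fitted again, the median of all genes became -2.40 on the log2 scale. Of the 8 members, 2 were then called higher, where 2.00% of all genes were, and 1 was called lower, where 86.8% of all genes were. The panel genes differed among themselves, with log2 fold changes from 0.69 to 3.63 with TMM factors. With panel scaling 5 of the 19 were called higher and 6 lower, so the panel is a sum over unlike genes.

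On that scale the members went in different directions. Gimap9 and Gimap4 were higher in the Batf-deficient libraries, at log2 fold changes of 0.79 (edgeR adjusted p = 0.00156, SE 0.19) and 0.48 (edgeR adjusted p = 0.000554, SE 0.10). Gimap6 was lower, at -0.64 (edgeR adjusted p = 8.31e-05, SE 0.11), so its direction turned. Gimap7 was at 0.46 and missed the threshold (edgeR adjusted p = 0.0579, SE 0.22). Gimap3 (0.17), Gimap1 (0.04), Gimap5 (-0.04) and Gimap8 (-0.07) also missed it, with edgeR adjusted p between 0.202 and 0.826. With SEs of 0.12 to 0.26, differences of that size were not resolved.

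**Figure D2:**
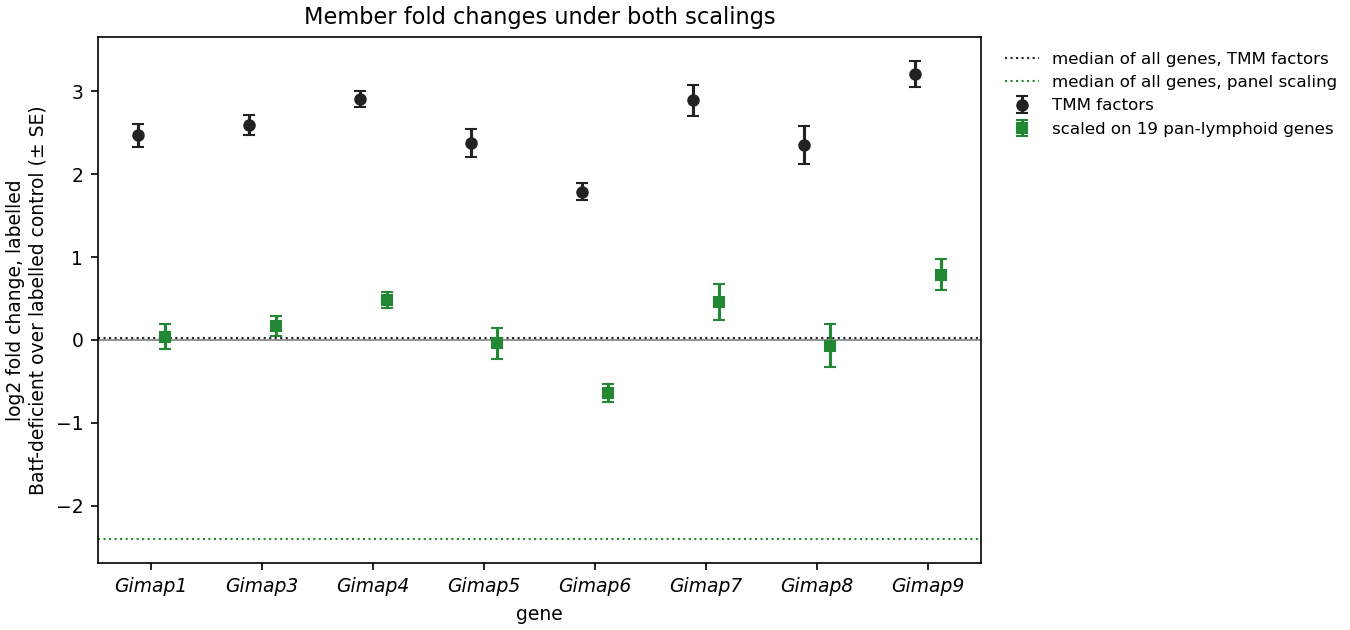
Log2 fold change of each GIMAP gene, labelled Batf-deficient over labelled control, with its SE, from the fit with TMM factors (circles) and from the fit scaled on 19 pan-lymphoid genes (squares). Dotted lines mark the median of all genes tested in each fit, 0.02 and -2.40. The circles lie between 1.79 and 3.21 and the squares between -0.64 and 0.79, with Gimap6 lowest and Gimap9 highest in both.

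The make-up of the family itself, which needs no scaling between libraries, differed between the groups mainly in Gimap6 and Gimap4. Gimap6 made up 40.0%, 36.4% and 34.9% of all GIMAP counts in control libraries, against 23.2%, 23.9% and 23.9% in the Batf-deficient libraries. Gimap4 made up 21.01%, 22.8% and 22.05% against 31.0%, 30.2% and 29.9%. There were therefore 0.525, 0.628 and 0.633 Gimap4 counts for each Gimap6 count in the control and 1.34, 1.26 and 1.25 in the Batf-deficient libraries. The share of Gimap9 was 2.18%, 3.36% and 3.19% against 4.85%, 4.98% and 5.23%. Shares are parts of a whole, so the lower Gimap6 share by itself raises the shares of the others. Shares of Gimap3 (17.4% ± 1.05 and 19.3% ± 0.744) and Gimap7 (2.88% ± 0.801 and 3.88% ± 0.0845) did not overlap between groups either, but these differences were less firm. After division by the length of all annotated exons, the Gimap3 shares were 17.98% ± 1.23 and 18.4% ± 0.680 (exact permutation p = 0.7). The Gimap7 difference then had an exact permutation p of 0.3. Per base of principal transcript, the Gimap3 shares were 13.9% ± 0.818 and 15.65% ± 0.634, so that difference depended on the length used. The Gimap7 shares were 3.90% ± 1.08 and 5.31% ± 0.102 there. Without control replicate 3 the Gimap7 difference in shares of counts fell to 0.56 points. Gimap1 (8.28% to 11.4% and 9.71% to 10.3%), Gimap5 (5.76% ± 1.26 and 5.59% ± 0.385) and Gimap8 (2.30% ± 0.923 and 2.15% ± 0.129) had overlapping shares.

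An exact two-sided permutation test of 3 against 3 libraries cannot give a p below 0.1. The shares of Gimap3, Gimap4, Gimap6, Gimap7 and Gimap9 reached that value, while Gimap1 had an exact p of 0.7 and Gimap5 and Gimap8 of 1. A fit of the whole table scaled on the summed GIMAP counts tests the same question with the spread of all genes. It gave -0.65 for Gimap6 (edgeR adjusted p = 5.52e-05, SE 0.11), 0.47 for Gimap4 (edgeR adjusted p = 0.000892, SE 0.11) and 0.78 for Gimap9 (edgeR adjusted p = 0.00212, SE 0.20) on the log2 scale. On that scale 1.93% of all genes were called higher and 87.0% lower. Scaling on the members centres them near 0 by construction, so their calls are relative to each other and are not read against these shares. The other 5 members did not pass, with edgeR adjusted p from 0.0784 for Gimap7 to 0.839 for Gimap1.

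**Figure D3:**
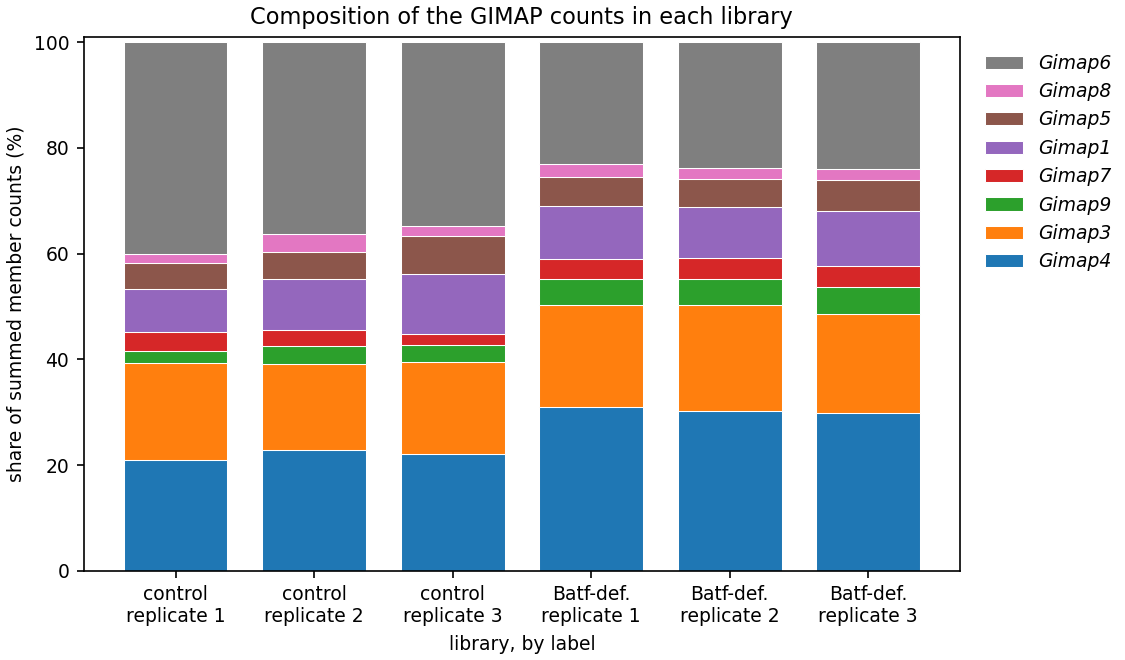
Share of the summed GIMAP counts taken by each gene, in percent of counts, with 1 stacked bar per library. The Gimap6 segment spans 34.9% to 40.0% in the control and 23.2% to 23.9% in the Batf-deficient libraries, and the Gimap4 segment 21.01% to 22.8% and 29.9% to 31.0%.

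Levels of different genes were compared only after division by exon length. Per kilobase of all annotated exons, Gimap4 led in the Batf-deficient libraries with 276 ± 10.3 CPM per kb, followed by Gimap3 (125 ± 7.64) and Gimap6 (113 ± 2.73). Gimap1 (54.3 ± 0.585) and Gimap9 (51.0 ± 1.07) came next, then Gimap7 (27.9 ± 0.117), Gimap5 (22.5 ± 1.03) and Gimap8 (9.69 ± 0.678). No neighbours in that order overlapped over the 3 libraries. In the control libraries the order began with Gimap4 (36.8 ± 1.46 CPM per kb) and Gimap6 (32.7 ± 3.20), whose ranges overlapped, and Gimap3 (20.8 ± 2.33) and Gimap1 (9.80 ± 1.83) followed. Gimap9 (5.44 ± 1.09), Gimap5 (4.30 ± 1.11) and Gimap7 (3.80 ± 1.04) could not be ordered there, since each overlapped its neighbour, and Gimap8 was last at 1.88 ± 0.636.

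The place of Gimap6 in this order depended on the length used. Its annotated exons cover 3496 bases, while its principal transcript Gimap6-201 has 1594. Per kilobase of the principal transcript, Gimap6 stood first in the control libraries at 71.8 ± 7.01 CPM per kb against 37.5 ± 1.49 for Gimap4. In the Batf-deficient libraries Gimap4 was first with either length, and Gimap6 moved from the third to the second place, at 248 ± 5.99 against 281 ± 10.5 CPM per kb of principal transcript for Gimap4. Which transcripts were made cannot be read from counts per gene.

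The genes around the cluster give a local background. Of 17 other genes within 500 kb that could be tested, 7 were higher and 3 lower in the Batf-deficient libraries (median 0.79, and -1.63 with panel scaling). Over all 15261 genes tested, 4612 (30.2%) were higher and 5209 lower with TMM factors. The median of all genes was 0.02, and -2.40 with panel scaling. Of the 4 nearest neighbours tested, Gimap1os was higher at 7.15 ± 0.25 against 17.9 ± 0.870 CPM (log2 fold change 1.33 with SE 0.21 and edgeR adjusted p = 0.000155). It turned to -1.10 with panel scaling (edgeR adjusted p = 0.00110). Gimap1 had 3.56 to 5.06 counts for each Gimap1os count in the control and 8.93 to 9.97 in the Batf-deficient libraries. Reads in the exon bases that this pair shares cannot be told apart without strand. The Gimap1os values and this ratio are therefore uncertain. Repin1, a zinc finger gene, had a log2 fold change of 1.43 (edgeR adjusted p = 0.00656) and was lower with panel scaling (edgeR adjusted p = 0.0331), while the neighbours AI854703 (1.66) and Zfp775 (0.78) missed the threshold.

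Further neighbours are named because of their values. Tmem176b and Tmem176a, which encode membrane proteins, lie 63.0 and 70.1 kb beyond Gimap3. They went from 316 ± 23.9 to 1772 ± 34.1 CPM and from 267 ± 33.2 to 1859.5 ± 28.3 CPM, log2 fold changes of 2.49 and 2.80, and with panel scaling they were at 0.06 and 0.38. Aoc1, which encodes the diamine oxidase of gut epithelium, lies 102.0 kb beyond Gimap3 and fell from 257 ± 3.91 to 7.26 ± 1.99 CPM.

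**Figure D4:**
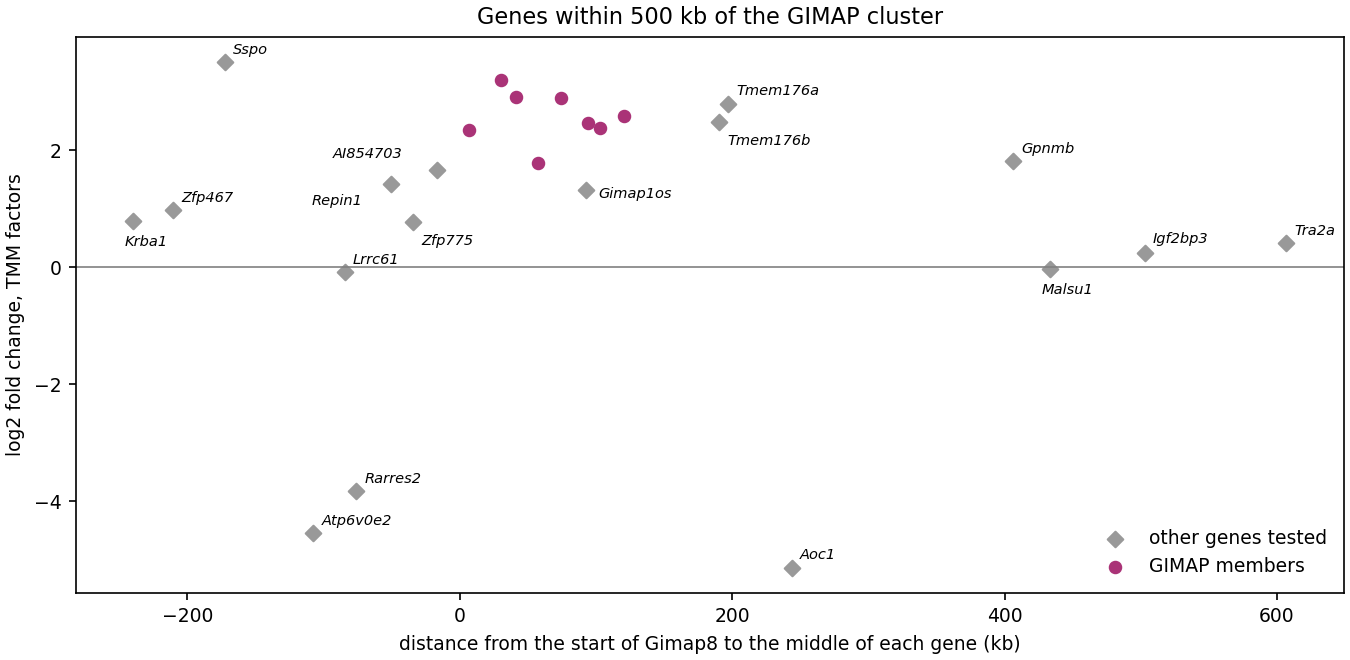
Log2 fold change with TMM factors (vertical axis) of the GIMAP genes (circles) and of 17 other tested genes within 500 kb (diamonds), by distance in kb from the start of Gimap8. The circles lie between 1.79 and 3.21, Tmem176a and Tmem176b lie at 2.80 and 2.49, and Aoc1 lies at -5.13. The highest diamond is Sspo, at 3.51 with 0.173 ± 0.300 against 2.35 ± 0.929 CPM.

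BATF belongs to the AP-1 family, and all 8 members were called higher with TMM factors, though only 2 with panel scaling. Their promoters were searched for 3 short motifs on both strands: AP-1 (TGANTCA), RUNX (TGTGGT) and ETS (AGGAAG). The windows reached from 250 bases before to 50 after each start (RefSeq, GRCm38.p6), and 9 windows matched the 8 genes, with 2 for Gimap8. None of the 9 held the AP-1 letters, which 7.81% of 32851 promoters hold. The RUNX letters were in 3 (Gimap1, Gimap4 and Gimap7), against 16.8% of all promoters, and the ETS letters were in 7 of the 9, against 35.4%. These are matches of letters and do not show binding. The 3 promoters shown are those of the members that departed from the family, with ETS and RUNX matches in capitals. The Gimap6 window held neither set of exact letters, and 1 of the 2 windows of Gimap8, a member that did not depart, held neither as well. Near matches were not counted: the Gimap6 window holds cggaag, which differs from the ETS letters at 1 base. It is therefore not shown to lack ETS sites.
Gimap4 promoter (chr6:48684328-48684627, + strand): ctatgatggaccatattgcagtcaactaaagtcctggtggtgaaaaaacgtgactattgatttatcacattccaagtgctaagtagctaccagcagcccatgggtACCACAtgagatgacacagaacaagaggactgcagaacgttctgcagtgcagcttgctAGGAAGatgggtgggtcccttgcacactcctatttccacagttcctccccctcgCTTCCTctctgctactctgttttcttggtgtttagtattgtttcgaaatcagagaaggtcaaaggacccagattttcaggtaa
Gimap6 promoter (chr6:48708195-48708494, - strand): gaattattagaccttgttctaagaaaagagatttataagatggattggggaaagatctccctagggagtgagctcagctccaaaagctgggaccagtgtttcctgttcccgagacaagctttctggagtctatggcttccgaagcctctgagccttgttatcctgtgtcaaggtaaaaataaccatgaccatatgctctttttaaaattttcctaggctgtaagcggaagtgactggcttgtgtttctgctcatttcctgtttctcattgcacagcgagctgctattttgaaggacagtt
Gimap9 promoter (chr6:48675885-48676184, + strand): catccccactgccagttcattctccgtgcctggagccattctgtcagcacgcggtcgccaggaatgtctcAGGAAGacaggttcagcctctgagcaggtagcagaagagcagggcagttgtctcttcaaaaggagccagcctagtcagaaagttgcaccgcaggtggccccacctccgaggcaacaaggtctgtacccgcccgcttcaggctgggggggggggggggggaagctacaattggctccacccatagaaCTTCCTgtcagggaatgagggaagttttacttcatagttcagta

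Genes that act with GIMAP proteins were read from lists. GIMAP3, GIMAP4 and GIMAP5 have been linked to BCL2-family proteins, the switch of mitochondrial cell death. Of 13 genes of that list, 6 were higher and 5 lower with TMM factors (median 0.10). Of all 15261 genes tested, 4612 (30.2%) were higher and 5209 lower. The survival genes Bcl2a1b and Bcl2a1d, which are near-identical copies and can share reads, were higher at log2 fold changes of 2.65 and 2.83. The death-promoting genes Bad and Bak1 were lower at -1.94 and -2.24. Both kinds of gene went both ways, since the death-promoting genes Bcl2l11 (0.88), Bbc3 (1.11) and Bax (0.44) were higher and the survival gene Mcl1 (-0.36) was lower. With panel scaling 1 was higher (Bcl2a1d, at 0.41) and 11 were lower (median -2.33), where 2.00% and 86.8% of all genes were. Bcl2 itself, named here after its value was seen, was at 86.5 ± 8.99 and 92.7 ± 8.53 CPM and did not pass (edgeR adjusted p = 0.492).

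Of 13 autophagy genes of the ATG8 system, to which GIMAP6 binds, 10 were higher with TMM factors and the others did not pass (median 0.78). The share called higher over all genes was 30.2%. All 13 were lower with panel scaling (median -1.65), as were 86.8% of all genes. Gabarapl2, the partner of GIMAP6, went from 59.3 ± 6.97 to 189.7 ± 43.4 CPM (log2 fold change 1.68, and -0.75 with panel scaling). The autophagy receptor gene Sqstm1 was at 1.75, and Gabarap and Atg12 at 1.24 and 1.37. On the panel scale Gimap6 and Gabarapl2 were thus both lower, and so was most of the table.

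Of 16 genes of lymphocyte quiescence, the resting state in which GIMAP genes are typically expressed, 11 were higher and 3 lower with TMM factors (median 1.23). Among all genes 30.2% were higher, and 5209 of 15261 were lower. With panel scaling 13 were lower, where 86.8% of all genes were, and the others did not pass (median -1.20). The growth inhibitors Tob2, Btg2 and Btg1 had log2 fold changes of 2.16, 1.65 and 2.04, and -0.26, -0.77 and -0.39 with panel scaling. The 3 lower genes were Tob1 (-1.05), a growth inhibitor of the same family, and the transcription factor genes Klf3 (-0.82) and Bach2 (-1.70). Il7r, the receptor of the survival cytokine IL-7 and also a panel gene, was at 2.44 and 0.01. For the panel genes themselves the median was 2.44 with TMM factors, close in value to the GIMAP median of 2.53.

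GIMAP genes are expressed in T cells, B cells, other lymphocytes and, for some members, endothelium, so markers of these cells were measured in the same libraries. The marker calls stand against a table in which, with TMM factors, 30.2% of genes were higher and 5209 of 15261 lower. All 12 ILC3 markers were higher in the Batf-deficient libraries (median 2.28, and -0.14 with panel scaling). Of 12 αβ T cell markers 9 were higher and 1, Cd8a, was lower (median 2.18, and -0.24 with panel scaling). Their summed level was 339.9 to 357 CPM in the control and 2219 to 2232 CPM in the Batf-deficient libraries, although the sort was lineage-negative. The largest parts of the Batf-deficient sum were Trbc2 (734 ± 14.5 CPM) and Trbc1 (504 ± 25.1 CPM). Cd3e was at 37.4 ± 3.80 and 283 ± 7.96 CPM, and Trac at 16.1 ± 3.59 and 55.1 ± 6.65 CPM. Cd4 and Cd8b1 did not pass. With panel scaling 5 of these markers were higher and 5 lower, where 2.00% and 86.8% of all genes were. Among 10 B cell markers, Blk was higher and 8 were lower (median -4.27), with Cd79a at 34.8 ± 2.86 against 1.54 ± 0.262 CPM. The summed B cell level was 119.8 to 159 CPM in the control and 158 to 183 CPM in the Batf-deficient libraries, with Blk alone at 136 ± 12.4 CPM in the latter.

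Of 14 endothelial markers 13 were lower in the Batf-deficient libraries and 1, Pecam1, was higher (median -2.69, and -5.10 with panel scaling). Their summed level was 401 to 489 CPM in the control and 143 to 170.2 CPM in the Batf-deficient libraries. The junction gene Cdh5 was at 18.7 ± 2.39 against 0.623 ± 0.240 CPM and the receptor gene Kdr at 33.9 ± 5.63 against 2.34 ± 0.565 CPM. No marker of the ILC3, T cell, B cell or endothelial lists was at 0 counts in either group. The control libraries, with the higher Gimap6 share, thus had higher levels of 13 endothelial and 8 B cell markers. Most markers of other tissues went the same way: 9 of 11 macrophage and dendritic, 9 of 10 stromal and 11 of 12 epithelial genes. Of these, 1 macrophage and dendritic gene went the other way. Of 8 plasma cell genes, 5 went the same way and 2 the other way. The part of any of these cells in the shares was not tested.

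Genes with the profile nearest to that of the summed family were ranked by the distance between centred log2 CPM values over the 6 libraries, among 8562 genes whose mean log2 CPM was 3 or more. The nearest 6 were Basp1, a membrane-bound signalling protein gene (distance 0.0947), Dusp1, a MAP kinase phosphatase gene (0.133), Ptprcap, which encodes a partner of CD45 (0.134), Tmem176b (0.144), Il2rg, the common γ chain gene (0.164), and Txk, a T cell kinase gene (0.165). Ptprcap went from 56.4 ± 2.87 to 301 ± 10.3 CPM and Il2rg from 309 ± 8.94 to 1672 ± 69.0 CPM. Il2rg and Txk were also panel genes. The members themselves lay at distances from 0.238 for Gimap3 to 0.807 for Gimap6, 0.818 for Gimap7 and 1.08 for Gimap9. The 6 nearest genes had log2 fold changes between 2.34 and 2.49. Points of this measure share 6 libraries in 2 groups, so it is a description.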

How the data were processed

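Smart-seq2 libraries of 6 samples were analysed, 3 per group, from sample titles and genotype labels. The authors deposited raw counts per gene symbol. Per the submitters' processing notes the build was mm10. For aligner, counter, annotation and strand setting, nothing is given in the sources used here. Counts are reads without molecular identifiers. Gene models are from GENCODE M21 (mm10), and promoters from RefSeq (GRCm38.p6). The members and lists were chosen with earlier results of these data known.

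Counts were fitted in R 4.3.3 with edgeR 4.0.16: filterByExpr (minimum count of 10, leaving 15261 genes), TMM factors, glmQLFit with robust=TRUE and a two-sided glmQLFTest on the 6 libraries, with no term but group. Benjamini-Hochberg adjustment ran over all tested genes (threshold 0.05). SEs were taken as the log2 fold change over the square root of F. The procedure was also run on simulated data with 200 changed genes. No outcome of that run is given, and the choice of scaling does not rest on it. Panel scaling used summed counts of 19 lymphoid genes, and family scaling, chosen after seeing the data, those of the 8 members. No p-value is given for the sum over members. Alternatives used DESeq2 1.42.0 and limma 3.58.1, and sequences were handled in Biopython 1.88.

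The rule for named genes took the members, Batf, the 6 nearest profiles, at most 4 genes per list by p and the 4 nearest tested neighbours. Bcl2, Bcl2l11, Bbc3, Bax, Mcl1, Tob1, Klf3, Bach2, Cd8a, Pecam1, Tmem176a, Aoc1 and Sspo fall outside it and were named with their values known. The same holds for Trac, Cd4 and Cd8b1.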

Additional observations from a re-analysis of the deposited data

How the results depend on the processing

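The members' fold changes kept direction and threshold in 112 of 112 refits over 14 alternatives: library totals, DESeq2 size factors, DESeq2, limma voom, no or stricter count filter, each library left out, Batf-deficient replicates 1 and 2 averaged, and the replicate block. Values ran from 1.41 (Gimap6) to 3.32 (Gimap9), with adjusted p up to 7.76e-05. Scaling on lymphoid genes changed this. With the panel, Gimap5, Gimap6 and Gimap8 turned to -0.04, -0.64 and -0.07, and with the summed members to -0.05, -0.65 and -0.10. Members called higher fell to 2 and members called lower came to 1 under both. Over all genes, higher calls went from 4612 to 305 with the panel, 295 with the summed members and 3048 with library totals (median -0.36). Lower calls went from 5209 to 13248 and 13277.

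Leaving out 1 library gave 8752 to 10135 genes called, 3603 to 4705 higher and 5149 to 5451 lower, with 8 members higher in each case. The log2 difference of the family sum stayed between 2.39 and 2.47. The share of Gimap6 differed by -14.53 to -11.95 points and that of Gimap4 by 7.93 to 8.84. Differences in the shares of Gimap1, Gimap5 and Gimap8 changed sign in some settings. Those of Gimap3, Gimap7 and Gimap9 kept their sign and varied in size. Gimap1, at 0.24 points, ran from -0.49 (without control replicate 1) to 1.07 (without control replicate 3), was -0.47 after division by exon length and 1.85 without Gimap4 in the sum. Gimap3, at 1.98, ran from 1.42 to 2.47, fell to 0.45 after division by exon length and was 5.53 without Gimap4 in the sum. Gimap7 ran from 0.56 (without control replicate 3) to 1.33 and was 0.79 after division by exon length and 1.88 without Gimap4 in the sum. Gimap9, at 2.11, ran from 1.75 to 2.34 and was 3.48 without Gimap4 in the sum. Gimap5, at -0.17, ran from -0.59 to 0.56 (without control replicate 3), reached 0.01 without Batf-deficient replicate 2, and was 0.65 without Gimap4 in the sum. Gimap8, at -0.15, ran from -0.45 to 0.38 (without control replicate 2) and was 0.13 without Gimap4 in the sum. As shares are parts of a whole, the fall of Gimap6 by itself raises the shares of other members. A sum without Gimap6 was not tried, and the cause was not tested.

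The labels state no pairing of same-numbered libraries. Deviations of such libraries from their group means correlated at 0.00 to 0.03, and 3 of 6 libraries correlated best with their own number. With so few libraries these values cannot show whether a pairing exists. With the replicate block 9694 genes were called, against 9821 without it, and it changed no member's call.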
